A study of Mus musculus with 6 samples.

Results

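Bone morphogenetic protein (BMP) signalling was followed through 9 genes of the 26231 in the deposited table, chosen by symbol: the secreted antagonist Grem1, the ligands Bmp2 and Bmp4, the receptors Bmpr1a and Bmpr2, the target genes Id1, Id2 and Id3, and the inhibitory Smad6. All 9 were listed, and 8 met the minimum for testing, 1 RPKM or more in 3 or more libraries. RPKM, reads per kilobase of exon scaled to the library's reads, is a level per length, so it can be compared between genes. The choice was made knowing how these genes differed between the lines, so their differences between the lines are a description, with no p-value given for any of the 9 and nothing read from the number that passed a threshold.

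The cells were mouse embryonic fibroblasts (MEFs) of the FVB strain, from embryos about 14 days old with Nf2 alleles flanked by loxP sites, immortalized with SV40 large T antigen. Nf2 encodes Merlin, a tumour suppressor that links membrane and actin and acts upstream of the Hippo pathway. One stock received a lentivirus with GFP under the CMV promoter (MEF WT (control)) and the other a CMV lentivirus with Cre and GFP (MEF Nf2 KO). Both lines came from cells with the floxed alleles and carried large T antigen and a lentiviral GFP, and both were grown with 10% FBS and kept without serum for 24 h before RNA was taken. There was 1 line of each kind with 3 libraries each, so the deletion, Cre itself and drift between the lines cannot be told apart. Same-numbered libraries of both lines carry a shared mark in the column names, whose meaning is not given. The labels do not say whether the replicates were separate cultures, so p-values measure only the spread between these libraries.

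BMPs are secreted dimers that bind a type II receptor such as Bmpr2 and a type I receptor such as Bmpr1a. The type I receptor then phosphorylates Smad1, Smad5 and Smad9, which enter the nucleus with Smad4. Id1, Id2 and Id3, which encode inhibitors of basic helix-loop-helix transcription factors, are among the best known direct targets, and Smad6 is a target that feeds back on the receptors. Gremlin 1, the Grem1 product, binds BMP2 and BMP4 outside the cell and keeps them from their receptors, and fibroblasts are a known source of it.

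The Nf2 level was 14.3, 13.7 and 13.1 RPKM in control replicates 1, 2 and 3, and 15.4, 12.9 and 13.9 RPKM in replicates 1, 2 and 3 labelled Nf2 KO. The lines overlapped, with means of 13.7 ± 0.583 and 14.1 ± 1.27 RPKM (SD, n = 3 each) and an adjusted p of 0.987 by limma, so Nf2 RNA did not separate the labels, and the second line is called the libraries labelled Nf2 KO throughout. The table gives a single value for the whole gene, which cannot show whether the flanked part is missing. Depth, recovered from the steps between low values, ran from 13462402 to 73093046 reads, and replicate 3 was the deepest in both lines.

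The fibroblast identity was checked with 10 markers, and Col1a1, Fn1 and Vim were among the most abundant, at 265 to 882 RPKM. Lum was near 0 (0 to 0.247 RPKM) and Dcn was low. The summed level of the 10 was 1855 to 2554 RPKM in the control and 1444 to 1876 RPKM in the libraries labelled Nf2 KO. Of 9 tested, 8 had a log2 fold change under 0, and 3 passed as lower (limma), Fn1, Pdgfra and Dcn, beside 0.578% of all genes. With the replicate number as a block 5 passed, with Thy1 (adjusted p = 0.00716 by limma, 0.178 without the block) and Col3a1 (0.0274, 0.890 without) added, beside 4.54% of all genes. Pdgfra, at 5.22 to 12.3 RPKM in the control and 0.657 to 1.42 RPKM in the libraries labelled Nf2 KO, and Dcn, at 1.60 to 4.01 and 0.0266 to 0.133 RPKM, met the minimum for testing through the control, so nothing is read from the calls of this pair. Summed markers of other cell types overlapped between the lines. Macrophage markers came to 6.01 to 8.62 RPKM over all libraries, nearly all Cd68, with Ptprc and Adgre1 at most 0.0202 RPKM. Endothelial markers came to 1.46 to 4.45 RPKM, mostly Kdr, and epithelial markers to 0.223 to 0.806 RPKM. Skeletal muscle markers, mostly Acta1, came to 0.475 to 6.25 RPKM, and bone and cartilage markers, mostly Sox9, to 7.52 to 20.2 RPKM, with Ibsp and Acan at or near 0.

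Promoter sequences from RefSeq (GRCm38.p6) were found for 7 of the 9 genes, each with 250 bases before the transcription start and the first 4 transcribed bases, and Bmp2 and Id1 had no entry. The promoters of Grem1, Bmp4 and Smad6 are shown because Grem1 and Bmp4 differed most between the lines and Smad6 holds the rarest of the motifs searched. Capitals mark these motifs, and the Bmp4 window holds none. The windows are chr2:113758645-113758898 for Grem1, chr14:46390666-46390919 for Bmp4 and chr9:64022056-64022309 for Smad6, all on the minus strand and printed 5′ to 3′.
Grem1: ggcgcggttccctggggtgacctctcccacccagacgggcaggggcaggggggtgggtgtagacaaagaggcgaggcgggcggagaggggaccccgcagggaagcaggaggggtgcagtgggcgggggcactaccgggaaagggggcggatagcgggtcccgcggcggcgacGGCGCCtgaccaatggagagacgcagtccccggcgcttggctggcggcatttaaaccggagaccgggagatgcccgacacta
Bmp4: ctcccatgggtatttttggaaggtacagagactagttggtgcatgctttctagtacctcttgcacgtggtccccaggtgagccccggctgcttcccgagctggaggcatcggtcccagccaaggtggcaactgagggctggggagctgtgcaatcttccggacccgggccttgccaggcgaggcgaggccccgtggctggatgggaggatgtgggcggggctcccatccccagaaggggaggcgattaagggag
Smad6: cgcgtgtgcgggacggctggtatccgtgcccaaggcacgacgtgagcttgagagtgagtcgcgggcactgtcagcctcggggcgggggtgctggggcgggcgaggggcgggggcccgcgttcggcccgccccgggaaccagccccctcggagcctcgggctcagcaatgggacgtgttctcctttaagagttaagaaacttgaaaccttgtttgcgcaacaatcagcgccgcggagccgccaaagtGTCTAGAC
Both strands were searched for GGCGCC, a GC-rich element bound by BMP Smads, for the palindrome GTCTAGAC, bound by Smad3 and Smad4, and for CATTCC, the core bound by TEAD factors. In the windows where they were found, no match overlapped another motif. GGCGCC was found in Grem1, its first base at -78 from the start, and in Bmpr1a at -198, Bmpr2 at -105 and Id2 at -231. It occurs in 9.68% of all 32851 promoters in the table. GTCTAGAC was found in Smad6, beginning at -4 and running across the start, and occurs in 0.17% of promoters. CATTCC was found in Id3 at -203 and occurs in 12.84% of promoters. These matches describe letters and not bound sites.

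Grem1 RNA was lower in every library labelled Nf2 KO than in any control library. The gene lies on chromosome 2, minus strand, from 113746164 to 113758646 (GRCm38, GENCODE vM21). Its level was 11.1, 18.6 and 19.7 RPKM in control replicates 1, 2 and 3, on 620, 1462 and 5011 reads. In replicates 1, 2 and 3 labelled Nf2 KO it was 2.12, 3.54 and 1.14 RPKM, on 159, 283 and 346 reads. The highest of the latter thus lay well under the lowest control library. The means were 16.5 ± 4.68 and 2.27 ± 1.20 RPKM (SD, n = 3 each), a 7.27-fold difference of means. On the log2(RPKM + 1) scale, where low genes show too small a change, the difference was -2.45 (standard error 0.32). Within same-numbered replicates the control was higher by 5.24, 5.25 and 17.3 times. In bulk RNA, fewer cells that make a transcript and less of it per cell cannot be told apart. Some fibroblast markers were also lower in these libraries. Leaving Pdgfra and Dcn aside, Fn1 passed with and without the block, and Thy1 and Col3a1 only with it. With the block 4.54% of all genes passed as lower. Pdgfrb hardly differed (log2 fold change 0.02). The part of the fibroblast markers in the Grem1 difference was not tested.

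**Figure D1:**
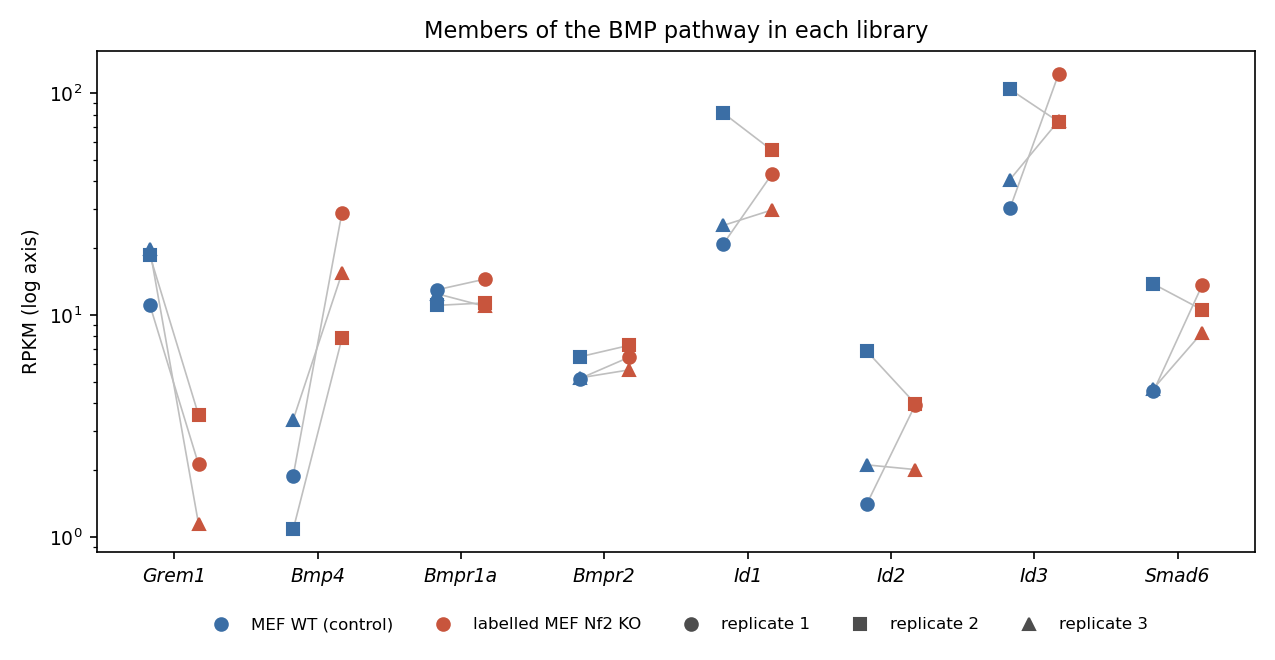
RPKM on a log axis for the 8 genes that passed the filter, in MEF WT (control) libraries (blue) and libraries labelled MEF Nf2 KO (red), with 1 point per library, shapes for replicate numbers and grey lines joining same-numbered libraries. Grem1 lies at 11.1 to 19.7 RPKM in the control and at 1.14 to 3.54 RPKM in the other line, Bmp4 at 1.08 to 3.37 against 7.84 to 28.9 RPKM, and the other 6 genes overlap.

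Bmp4, a ligand that Gremlin 1 binds, differed in the other direction. It lies on chromosome 14, minus strand, from 46383520 to 46390669. Control replicates 1, 2 and 3 had 1.88, 1.08 and 3.37 RPKM, on 57, 46 and 464 reads. Replicates 1, 2 and 3 labelled Nf2 KO had 28.9, 7.84 and 15.4 RPKM, on 1175, 340 and 2534 reads. The lines did not overlap, and the libraries labelled Nf2 KO also spread widely among themselves, replicate 1 being the highest. Their mean was 17.4 ± 10.7 against 2.11 ± 1.16 RPKM (SD, n = 3 each), and the log2 fold change was 2.46 (standard error 0.47). Within replicates 1, 2 and 3 the level was 15.3, 7.27 and 4.58 times that of the control. Gm15222, annotated on the opposite strand across Bmp4, moved alike at a far lower level, from 0.0299 to 0.185 RPKM in the control to 0.235 to 1.85 RPKM in the libraries labelled Nf2 KO. The annotated exons of the pair share 0 bases. Gm15217, also on the opposite strand, shares 89 exon bases with Bmp4 and had at most 0.0602 RPKM.

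Which of the pair was the more abundant, the antagonist or this ligand, changed with the line. Grem1 stood at 5.89, 17.2 and 5.85 times the Bmp4 level in control replicates 1, 2 and 3. Bmp4 stood at 13.6, 2.22 and 13.5 times the Grem1 level in replicates 1, 2 and 3 labelled Nf2 KO. Replicate 2 held the most Grem1 relative to Bmp4 in either line.

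Bmp2, the other ligand, on chromosome 2, plus strand, from 133552159 to 133562885, was listed at 0 in replicates 1 and 2 of both lines. A single read was found in each replicate 3 library, at 0.00459 RPKM in the control and 0.00385 RPKM in the library labelled Nf2 KO. A count of 0 allows up to 3 reads, which is 0.0627 and 0.0445 RPKM in control replicates 1 and 2 and 0.0467 and 0.0438 RPKM in those labelled Nf2 KO, for counting error only. Bmp2 was under the filter and no difference was detectable at this depth.

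Both receptor genes overlapped between the lines. Bmpr1a, the type I receptor, on chromosome 14, minus strand, from 34410734 to 34503341, had 13.0, 11.0 and 12.5 RPKM in control replicates 1, 2 and 3 and 14.5, 11.3 and 10.9 RPKM in those labelled Nf2 KO. The lines overlapped, with means of 12.2 ± 1.00 and 12.3 ± 1.97 RPKM (SD, n = 3 each) and a log2 fold change of 0.00 (standard error 0.13), whose sign changed with the libraries left out. It shares 4.08% of its 31-base stretches with Gm17110, which overlaps it on the opposite strand.
Bmpr2, the type II receptor, on chromosome 1, plus strand, from 59763400 to 59879014, had 5.17, 6.48 and 5.20 RPKM in control replicates 1, 2 and 3 and 6.43, 7.29 and 5.65 RPKM in those labelled Nf2 KO. It was higher in the latter in all 3 same-numbered pairs, by log2 differences of 0.27, 0.15 and 0.10, but the lines overlapped. The means were 5.62 ± 0.746 and 6.46 ± 0.818 RPKM (SD, n = 3 each), for a log2 fold change of 0.17 (standard error 0.13). Bmpr1a exceeded Bmpr2 in every library, 1.56 to 2.51 times.

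The target genes overlapped between the lines, and control replicate 2 was the highest control library for each of them. Id1, on chromosome 2, plus strand, from 152736251 to 152737410, had 20.9, 81.3 and 25.3 RPKM in control replicates 1, 2 and 3 and 43.2, 55.2 and 29.7 RPKM in those labelled Nf2 KO. The means, 42.5 ± 33.7 and 42.7 ± 12.7 RPKM (SD, n = 3 each), differed by less than the spread of the control libraries, and the log2 fold change was 0.23 (standard error 0.51).
Id2, on chromosome 12, minus strand, from 25093799 to 25097140, was the lowest of the 3 Id genes in every library, with 1.40, 6.88 and 2.11 RPKM in control replicates 1, 2 and 3 and 3.95, 3.98 and 2.01 RPKM in those labelled Nf2 KO, on 46 to 358 reads. Its lines overlapped too, with means of 3.46 ± 2.98 and 3.31 ± 1.13 RPKM (SD, n = 3 each) and a log2 fold change of 0.11 (standard error 0.45). For both Id1 and Id2 the direction changed with the libraries left out.

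Id3, on chromosome 4, plus strand, from 136143497 to 136145755, was the highest of the 3 Id genes in every library. It had 30.3, 103.9 and 40.8 RPKM in control replicates 1, 2 and 3 and 122.5, 74.2 and 75.2 RPKM in those labelled Nf2 KO. Only control replicate 2 reached the range of the libraries labelled Nf2 KO. The means were 58.3 ± 39.8 and 90.6 ± 27.6 RPKM (SD, n = 3 each), and on the log2 scale the difference was 0.79 (standard error 0.45).
Smad6, on chromosome 9, minus strand, from 63953076 to 64022059, had 4.52, 13.8 and 4.65 RPKM in control replicates 1, 2 and 3 and 13.6, 10.5 and 8.33 RPKM in those labelled Nf2 KO. Here too control replicate 2 was above the other control libraries, and above all 3 labelled Nf2 KO. The means were 7.65 ± 5.31 and 10.8 ± 2.65 RPKM (SD, n = 3 each), and on the log2 scale the difference was 0.59 (standard error 0.40).

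Control replicate 2 held 3.52 times the mean of control replicates 1 and 3 for Id1, 3.92 times for Id2, 2.93 times for Id3 and 3.01 times for Smad6. In the libraries labelled Nf2 KO the same ratio was 1.51, 1.34, 0.751 and 0.962, so replicate 2 did not stand out there for Id3 and Smad6. Within same-numbered replicates Id1 differed by log2 1.01, -0.55 and 0.22, Id2 by 1.04, -0.66 and -0.05, Id3 by 1.98, -0.48 and 0.87, and Smad6 by 1.40, -0.36 and 0.72. All 4 were higher in the library labelled Nf2 KO in replicate 1 and lower in replicate 2. Id1, Id3 and Smad6 were also higher in replicate 3, a pattern of signs that 8.67% of all genes tested shared. Without replicate 2 of both lines the log2 fold change was 1.42 for Id3 and 1.06 for Smad6, and without replicate 1 of both lines it was 0.19 and 0.18.

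**Figure D2:**
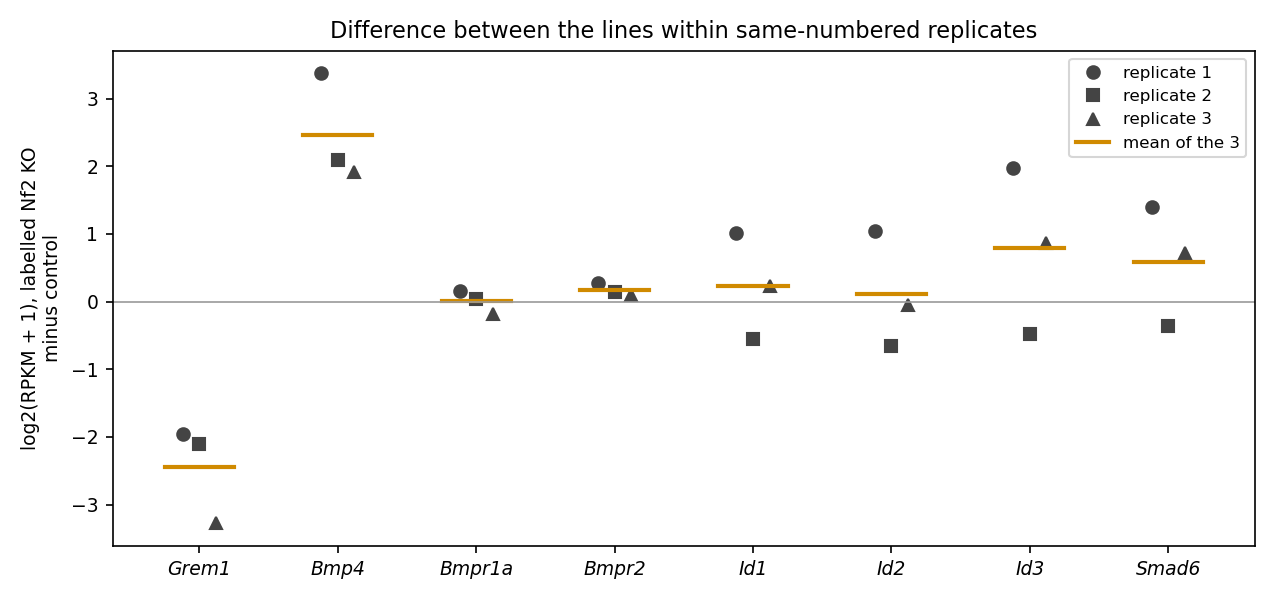
Difference in log2(RPKM + 1) between the library labelled Nf2 KO and the control library of the same replicate number for the 8 genes that passed the filter, with shapes for replicate numbers and a bar for the mean of the 3. All 3 differences lie under 0 for Grem1 (-1.96 to -3.27) and above 0 for Bmp4 (1.91 to 3.37) and Bmpr2 (0.10 to 0.27), while Id1, Id2, Id3 and Smad6 lie above 0 in replicate 1 and under 0 in replicate 2.

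Of the 8 genes tested, 1 passed an adjusted p of 0.05 between the lines (limma), Grem1, beside 1.06% of all 11067 genes (0.578% lower and 0.479% higher). With the replicate number as a block, Bmp4 passed as well, 2 of 8 beside 7.53% of all genes (4.54% lower and 2.99% higher). With replicate 2 left out of both lines, 4 passed, Grem1 lower and Bmp4, Id3 and Smad6 higher, beside 4.37% of all genes (1.87% higher). With control replicate 1, control replicate 3, or replicate 1 or 3 labelled Nf2 KO left out, 0 of the 8 passed (limma, 2 at p under 0.05 before adjustment each time), beside 0.0994%, 0.0904%, 0.0904% and 0.163% of all genes. Without replicate 2 labelled Nf2 KO, Grem1 and Bmp4 passed, beside 0.831% of all genes. Without replicate 1 or replicate 3 of both lines, 0 passed beside 0% of all genes (limma, 578 and 556 of all genes at p under 0.05 before adjustment). The lines did not overlap for Grem1 and Bmp4, beside 15.1% of all genes (7.52% lower and 7.6% higher). Same-numbered differences were of mixed sign for Bmpr1a, Id1, Id2, Id3 and Smad6, as in 53.1% of all genes. Of the 8, 7 had a log2 fold change above 0, as did 47.9% of all genes, and the medians were 0.20 and -0.01. Since the 9 genes were chosen for this contrast, nothing is read from these counts, shares and medians.

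Differences across replicate numbers, which did not serve to choose the genes, were tested with the line in the model. Of the 8 genes, 0 passed (limma, moderated F test, 3 at an unadjusted p under 0.05: Bmp4, Bmpr2 and Id1), beside 21.2% of all genes. Id1 came closest, at an adjusted p of 0.0778 by limma. Its level in replicate 2 exceeded that in replicate 1 by 1.13 on the log2 scale over both lines. When replicate 1 was left out, Bmp4, Id1 and Id2 passed, 3 of 8 beside 24.4% of all genes, and when replicate 3 was left out, Grem1 passed, 1 of 8 beside 24.3%.

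Over the 6 libraries Id1 and Id2 had similar profiles, and so had Id3 and Smad6. Likeness was measured as the root mean square difference of log2(RPKM + 1) after each gene's mean was taken off, as a description over 6 libraries that share line and replicate number. Of the 11066 other tested genes, the one most like Id1 was Id2, at a distance of 0.145 on the log2 scale. Id3 and Smad6 were each the most like the other, at 0.195. From Id1, Smad6 lay at rank 20 (0.312) and Id3 at rank 170 (0.442). Id1 kept 11.8 to 14.9 times the Id2 level in the control and 10.9 to 14.8 times in the libraries labelled Nf2 KO. Id3 ranged from 1.28 to 1.61 times the Id1 level in the control and from 1.34 to 2.84 times in the libraries labelled Nf2 KO.
Atoh8, which encodes a transcription factor and is a known BMP target, was the tested pathway target with the highest mean level. It had 1.27, 10.4 and 2.34 RPKM in control replicates 1, 2 and 3 and 11.7, 9.35 and 5.72 RPKM in those labelled Nf2 KO. The lines overlapped (limma, log2 fold change 1.12, adjusted p = 0.667, 0.233 with the replicate block). Among all tested genes Id3 was the most like Atoh8, at 0.305. Smad7, an inhibitory Smad of both the BMP and TGF-beta branches and named here after its values were seen, was highest in replicate 2 of both lines, with 5.70, 24.1 and 5.74 RPKM in control replicates 1, 2 and 3 and 6.47, 18.6 and 7.39 RPKM in those labelled Nf2 KO. Its log2 fold change between the lines was 0.04.

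**Figure D3:**
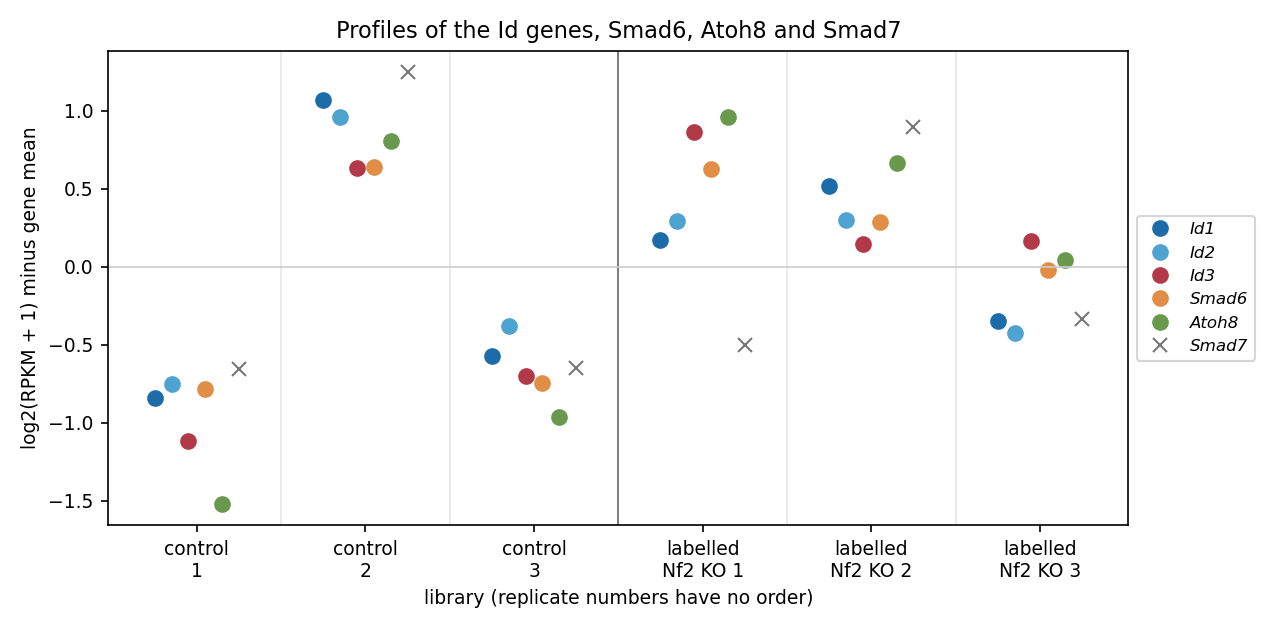
Level of 6 genes in each library as log2(RPKM + 1) minus the gene's mean, with control libraries to the left of the dark line and libraries labelled Nf2 KO to the right. All 6 lie above their mean in control replicate 2 and under it in control replicates 1 and 3, and in replicate 1 labelled Nf2 KO the 3 Id genes, Smad6 and Atoh8 lie above it while Smad7 (cross) lies under it.

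The rest of the pathway was described with a list of 60 further genes, of which 55 had a value and 32 were tested. The other 5, Bmp10, Bmp15, Gdf2, Hfe2 and Sost, were not analysed here. Between the lines 0 of 32 passed, beside 1.06% of all genes (limma, 6 at p under 0.05 before adjustment, beside 1097 of all 11067 genes). The fit with the block gave 7, 21.9% beside 7.53% of all genes, of which Eng was higher and 6 were lower in the libraries labelled Nf2 KO. Of the 6, Msx2 could be tested only because of its level in the control, and nothing is read from its call. Over the 32 genes 15 log2 fold changes were above 0 and 17 under it, with a median of -0.045.

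Among secreted antagonists 1 of 7 tested genes, from 15 with a value, fell with the replicate block, beside 4.54% of all genes. Nbl1, which encodes an antagonist of the same cystine knot family as Gremlin 1, fell from 41.8 ± 6.78 to 25.01 ± 4.04 RPKM (SD, n = 3 each), with an adjusted p of 0.00578 by limma with the block and 0.138 without. Fstl1, a secreted follistatin-like protein and the most abundant of the list's antagonists in every library, had 186.8 ± 21.9 and 161.1 ± 17.5 RPKM (SD, n = 3 each) and did not pass either way.

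All 4 tested co-receptor genes passed with the block, beside 7.53% of all genes. Rgma, whose product binds BMPs and the receptors at the membrane, had 10.1, 4.64 and 10.3 RPKM in control replicates 1, 2 and 3 and 4.63, 3.00 and 4.53 RPKM in those labelled Nf2 KO (limma, log2 fold change -0.84, adjusted p = 0.0184 with the block, 0.381 without). Rgmb, of the same family, had means of 5.68 ± 1.54 and 3.22 ± 0.281 RPKM (limma, adjusted p = 0.0332 with the block, 0.252 without). Neither gene's lines overlapped, beside 7.52% of all genes that were apart and lower. For Rgma the gap was narrow, 4.64 RPKM in control replicate 2 against 4.63 RPKM in replicate 1 labelled Nf2 KO. Tgfbr3, betaglycan, had 8.74 ± 2.87 and 4.33 ± 1.80 RPKM (limma, adjusted p = 0.0284 with the block, 0.366 without). Eng, endoglin, was the one gene that rose, from 40.7 ± 2.84 to 51.3 ± 3.52 RPKM (SD, n = 3 each), with an adjusted p of 0.0390 by limma with the block and 0.267 without.

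Among the genes that carry the signal into the nucleus, none of the 4 tested receptors, 4 Smads or 6 Smad regulators passed. This held without the block, beside 1.06% of all genes, and with it, beside 7.53% (limma, 0 at an unadjusted p under 0.05 in each group). With groups this small, nothing is read from these counts. Acvr1, a type I receptor, had 9.18 ± 0.401 and 8.24 ± 0.459 RPKM, and Smad4, the common partner Smad, 25.5 ± 0.636 and 25.9 ± 0.651 RPKM (SD, n = 3 each). Ski, a repressor that binds Smads, had 34.7 ± 0.880 and 38.3 ± 1.02 RPKM. The lines did not overlap for Acvr1, lower in the libraries labelled Nf2 KO, or for Smad1 and Ski, higher there. Of all genes, 7.52% were apart and lower and 7.6% apart and higher. No other BMP ligand passed the filter, and the highest of the 9 with a value by its mean over all 6 libraries, Bmp8a, had 0.950 ± 0.132 and 0.764 ± 0.498 RPKM (SD, n = 3 each).
Of the proteases that free BMPs from antagonists or process matrix, Bmp1 fell from 10.0 ± 1.26 to 7.95 ± 1.02 RPKM (limma, adjusted p = 0.0414 with the block, 0.532 without), and Tll1, the highest by its mean over all 6 libraries, had 9.92 ± 8.87 and 15.5 ± 8.91 RPKM (limma, adjusted p = 0.0556 with the block). Among 5 tested targets the only one called with the block was Msx2, a homeobox gene. It had 1.68, 2.61 and 1.85 RPKM in control replicates 1, 2 and 3 and 0.792, 0.474 and 0.701 RPKM in those labelled Nf2 KO, so that it met the minimum for testing only through the control, and its values are a description. Across replicate numbers 12 of the 32 genes passed (37.5%, limma), beside 21.2% of all genes.

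**Figure D4:**
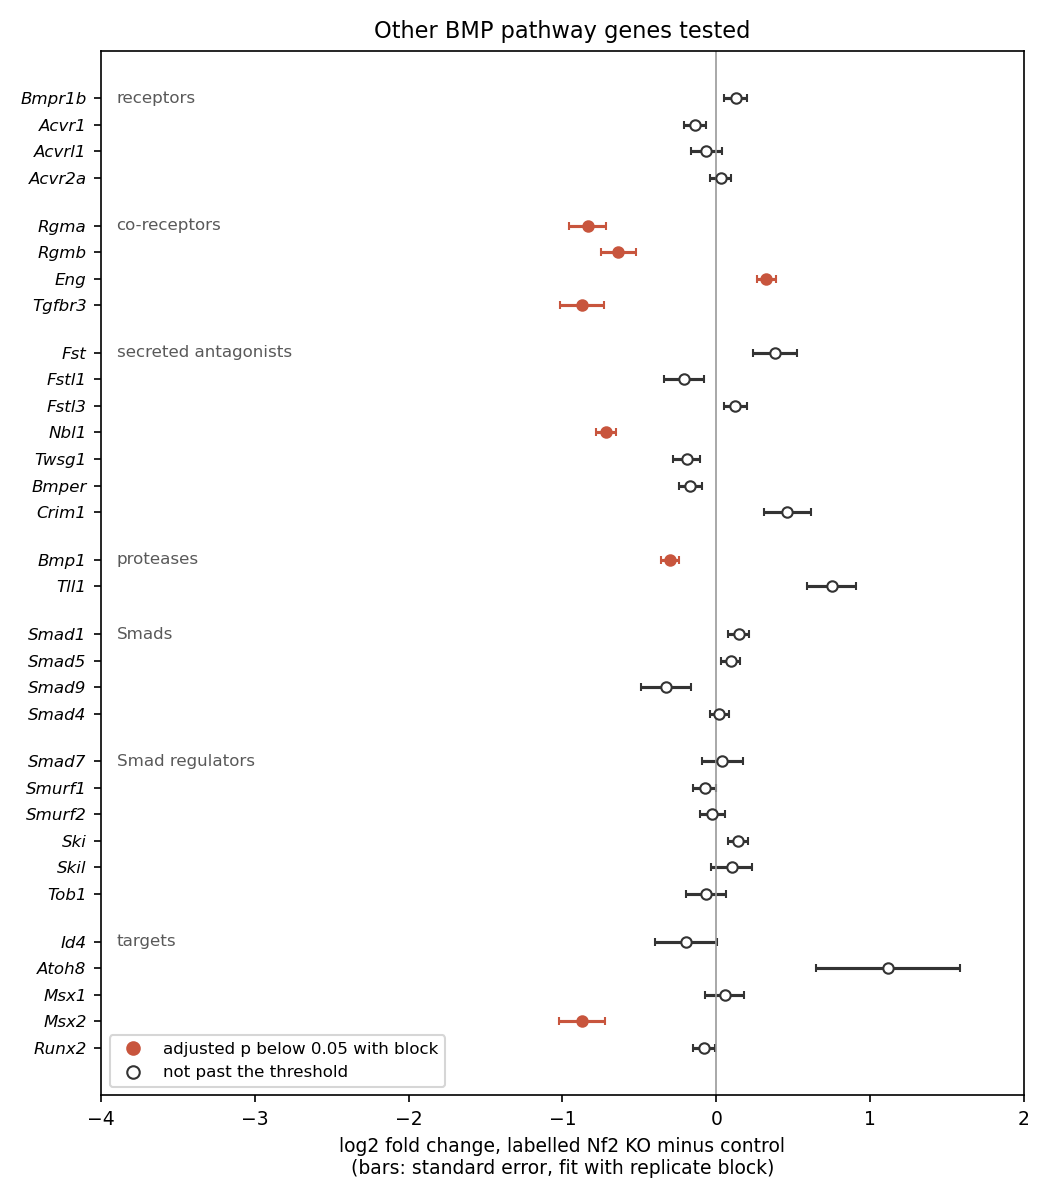
Log2 fold change, libraries labelled Nf2 KO minus control, with its standard error from the fit with the replicate block, for the 32 tested pathway genes by role, with filled points for the 7 past an adjusted p of 0.05 in that fit. Rgma, Rgmb, Tgfbr3, Nbl1, Bmp1 and Msx2 are filled to the left of 0, Eng is the only filled point to the right at 0.33, and the receptors, Smads and Smad regulators hold no filled point.

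Among the 7023 genes whose mean was 5 RPKM or more, those most like Grem1 were Il1rl1, Gap43, Nrn1, Angptl2 and Ank, at distances of 0.395, 0.479, 0.496, 0.570 and 0.589 on the log2 scale. Il1rl1, which encodes the IL-33 receptor, had 11.9 ± 1.72 and 2.22 ± 0.953 RPKM, and Gap43, a growth cone protein gene, 12.9 ± 1.00 and 3.02 ± 1.53 RPKM (SD, n = 3 each). These genes were picked for resembling Grem1, so their difference between the lines is no separate result.

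Of the 18 genes that flank the 9 on either side, 6 were tested. Between the lines 0 passed, beside 1.06% of all genes, and 0 with the block, beside 7.53% (limma, 1 and 2 at an unadjusted p under 0.05). With 6 genes, nothing is read from these counts. Fmn1, the formin gene beside Grem1 at 31.9 kb, had 5.52 ± 1.59 and 4.73 ± 0.799 RPKM (SD, n = 3 each), with an adjusted p of 0.935 by limma and 0.40 with the block. Scg5, on the other side of Grem1 at 17.7 kb, was under the filter in both lines.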

How the data were processed

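RNA was extracted from 3 MEF WT (control) and 3 MEF Nf2 KO samples, and libraries, sequencing and data analysis were done by GENEWIZ. The authors deposited 1 table of 26231 genes, and the submitters' processing notes name mm10. The aligner, counting tool and use of strand are not given in the sources used here. The deposited values were taken as RPKM. Multiplied by exon length (GENCODE vM21), 83.2% to 85.1% of values of up to 20 reads lay within 0.05 of a whole number of reads. Evenly spread values would give 10%. That share is too low a standard, since 1 read was set at the commonest value and values there are whole by construction. Each library's values summed to between 250088 and 263424. Low genes rest on fewer reads in replicates 1 and 2 than in replicate 3.

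The members and gene lists were chosen with earlier results of these data known. Log2(RPKM + 1) values of the 11067 genes that reached 1 RPKM in 3 or more libraries were fitted with limma 3.58.1 in R 4.3.3 (eBayes with trend and robust), and two-sided p-values were adjusted by Benjamini-Hochberg over these genes, with a threshold of 0.05. There was no covariate, since the study used an unpaired test. Libraries with the same number deviated together from the means of their lines, with correlations of 0.552, 0.819 and 0.516 for replicates 1, 2 and 3 over genes, which met the rule for pairing. The main fit stayed unpaired, as in the study, its standard errors are the ones printed, and values from the fit with the block are given beside results whose call it changed. The fits were tested on simulated data. Other settings tried were limma with neither trend nor robust, a pseudocount of 0.1, testing all genes, a minimum of 5 RPKM, quantile normalization, median centring, the block, and leaving out each library and each replicate number.

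Genes named are the 9, Nf2, pathway genes past the threshold with or without the block, the highest of each role, the nearest gene with a value on either side of each of the 9, and the 5 most like Grem1. Others are named after their values were seen. One result is not reported here. Figures were drawn with matplotlib 3.10.9.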

Additional observations from a re-analysis of the deposited data

How the results depend on the processing

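Between the lines 1 of the 8 genes tested passed (Grem1), beside 1.06% of all genes, 0 with no filter, where 26231 genes share the adjustment and 9 passed in all (limma, 2 of the 9 listed genes at an unadjusted p under 0.05), and 2 with the replicate block, which brought in Bmp4, beside 7.53%. The genes were chosen for this contrast, so nothing is read from these counts. Leaving out libraries or replicate numbers gave 0 to 4. Control replicate 1, control replicate 3, replicate 1 labelled Nf2 KO, replicate 3 labelled Nf2 KO, replicate 1 of both lines and replicate 3 of both lines each left 0 when removed (2 at an unadjusted p under 0.05 each time, limma), as it left only 0 to 18 of all 11067 genes, while removing replicate 2 of both lines gave 4, Grem1, Bmp4, Id3 and Smad6, beside 4.37% of all genes, and removing replicate 2 labelled Nf2 KO gave 2. Of the 32 other pathway genes 0 passed (limma, 6 at an unadjusted p under 0.05) and 7 with the replicate block, beside 7.53% of all genes, and 0 to 4 with libraries left out: 2 without control replicate 2 (Rgma and Rgmb), where 142 of all 11067 genes passed, and 4 without replicate 2 (also Nbl1 and Msx2), beside 4.37%. Across replicate numbers 0 of 8 passed, and 0 to 3 with a replicate number left out. The log2 fold change kept its sign in every alternative run for Grem1 (-2.90 to -2.03), Bmp4 (2.0 to 2.93), Bmpr2 (0.09 to 0.26), Id3 (0.19 to 1.42) and Smad6 (0.18 to 1.06). It reversed for Bmpr1a (-0.12 to 0.0927) at -0.06 without control replicate 2, -0.12 without replicate 1 labelled Nf2 KO, -0.07 without replicate 1 and -0.01 without replicate 2. For Id1 (-0.16 to 0.82) it was -0.13 without control replicate 1, -0.0003 without control replicate 3 and -0.16 without replicate 1. For Id2 (-0.36 to 0.62) it was -0.24 without control replicate 1, -0.05 without control replicate 3, -0.0073 without replicate 1 labelled Nf2 KO, -0.01 without replicate 2 labelled Nf2 KO and -0.36 without replicate 1. The causes of these changes were not tested. Bmp2, with at most 1 read in a library, is limited by depth.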
